A study of Homo sapiens with 8 samples.

Results

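The genes described here carry glucose and lactate across the cell membrane, run glycolysis, regulate it, and form the pentose phosphate pathway. They were chosen by name, as the rows of the deposited count table whose symbol is on a fixed list of 39, a rule that uses names and not measured values. All 39 were present among the 15852 listed genes, and all 39 passed the filter on low counts. They were measured by polyA RNA sequencing in KYSE150, a human cell line grown from an esophageal squamous carcinoma. The 4 knockdown libraries have the genotype label ShBOLA3-L, a short hairpin against the BOLA3-L isoform. BOLA3 is a mitochondrial factor that helps to hand iron-sulfur clusters to other proteins. The 4 control libraries have the genotype label Control, and the treatment label of both groups is None. The labels do not tell how many hairpins were used, whether the cells are a clone or a pool, or whether libraries of a group come from separate cultures. The p-values therefore measure the spread between these libraries, which may be technical.

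Glycolysis splits glucose into pyruvate in the cytosol and yields ATP and NADH, and lactate dehydrogenase returns the NADH to NAD by making lactate. The pentose phosphate pathway leaves glycolysis at its first phosphorylated sugar. Its oxidative branch makes NADPH, which pays for reductive synthesis and antioxidant defence, and its non-oxidative branch makes ribose and hands sugars back to glycolysis. High glucose uptake with lactate release is a common trait of carcinomas, and the hypoxia-inducible factors are known activators of many of these genes.

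Depth ranged from 31178036 to 35147860 counts per library, and levels are given as CPM, which scale each count to the normalized library size but not to gene length. BOLA3 averaged 6.58 ± 0.531 CPM after knockdown and 20.8 ± 1.26 CPM in controls (SD, n = 4 each), with all isoforms counted together. Knockdown replicate 1 stood apart from the other knockdown libraries on the second principal component, at 20.1 against -10.1 to -4.81. All 10 epithelial markers passed the filter, of which 7 fell and 1 rose. The squamous or basal genes KRT5, KRT14, KRT6A, KRT17, TP63 and DSG3 all fell (log2 change -1.55 to -0.31). Of the general or simple epithelial genes CDH1 fell, EPCAM rose, and KRT8 and KRT18 did not pass. The summed level of the 10 was 6475 to 7679.6 CPM after knockdown and 8389.5 to 8458.5 CPM in controls. Fibroblast markers, 6 of 7 listed, summed to 4.30 to 7.05 CPM after knockdown and 9.77 to 14.7 CPM in controls, with COL1A2 and DCN at no more than 3 counts in any library. COL1A1 alone averaged 4.80 ± 1.254 CPM after knockdown and 11.7 ± 2.29 CPM in controls (SD, n = 4 each). Leukocyte markers summed to 74.2 to 80.4 CPM after knockdown and 77.1 to 84.3 CPM in controls, with CD3E and LYZ at no more than 3 counts, and endothelial markers to 1.96 to 2.58 CPM and 0.994 to 1.90 CPM, with PECAM1 at no more than 3 counts. The part of these shifts in the results below was not tested. In bulk RNA, fewer cells of a type and less RNA per cell cannot be told apart.

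After BOLA3-L knockdown 10 of 19 glycolytic enzymes fell and 0 rose, led in level by GAPDH, PKM, TPI1, LDHA and ENO1. Of 7 pentose phosphate enzymes 5 rose and 0 fell, with H6PD at 217% of its control mean and PGLS at 151%. Over all 39 genes 14 fell and 7 rose, and 18 did not pass the test (edgeR quasi-likelihood test, Benjamini-Hochberg adjusted p under 0.05 over 11841 genes). Of all tested genes 30.7% passed, 15.6% falling and 15.0% rising, against 53.8% of the 39, 35.9% falling and 17.9% rising. The share of risers among the 39 is thus near that of all genes. Among genes averaging at least 10 CPM 33.1% passed. The median log2 change was -0.08 over the 39 genes, -0.16 over the glycolytic enzymes and 0.26 over the pentose phosphate enzymes, beside 0.00142 over all tested genes. Each difference between these group medians is a description, with no test. Among the glycolytic enzymes 1 gene was higher at an unadjusted p under 0.05 in the edgeR fit, GPI, and it passed as a rise in 8 of 19 alternatives, DESeq2 among them. Without knockdown replicate 1 the glycolytic enzymes gave 11 falls and 2 rises, GPI and PFKP, and the pentose phosphate enzymes again 5 rises and 0 falls. Over all tested genes that fit also called more, 2555 falling and 2526 rising of 11897, against 1853 and 1777 of 11841 with all libraries.

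**Figure D1:**
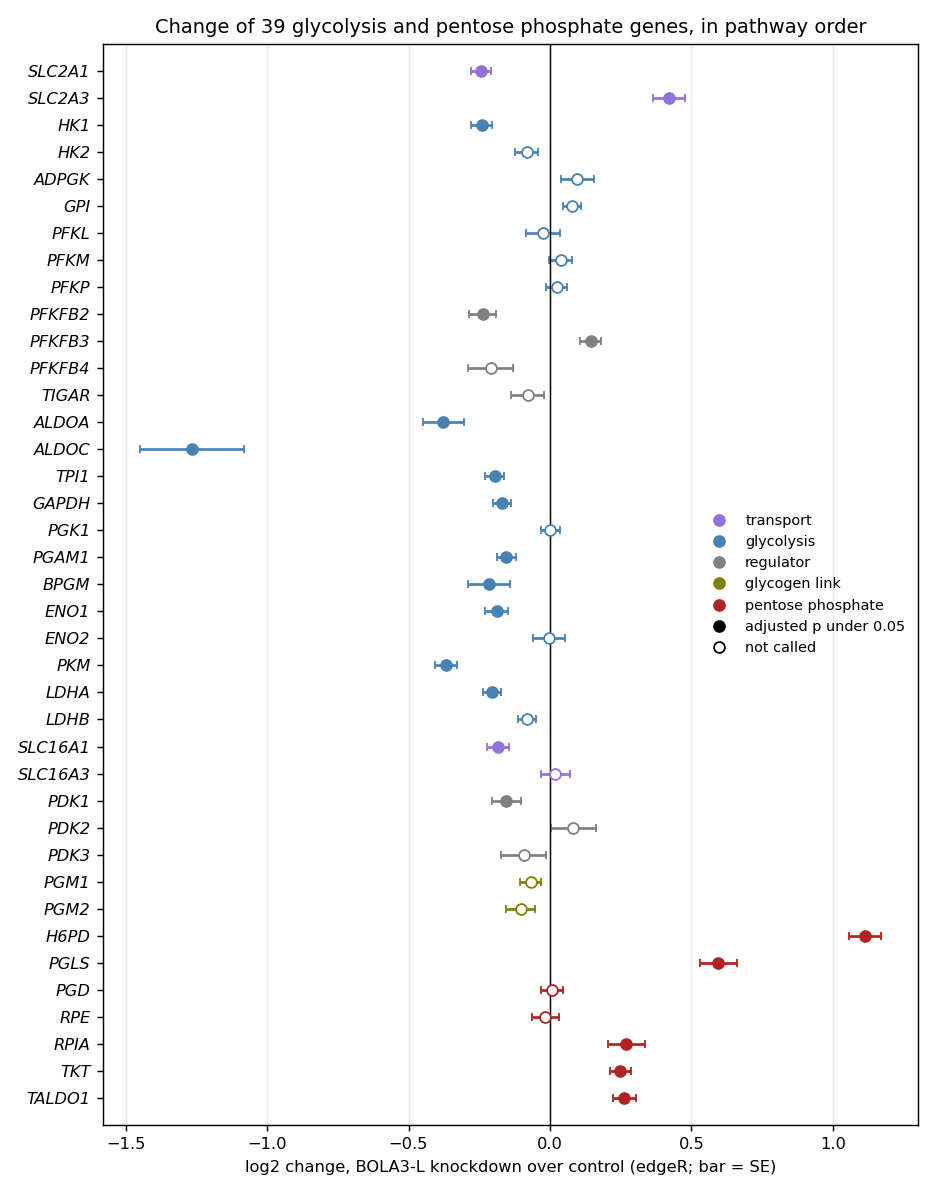
The log2 change of each of the 39 genes in BOLA3-L knockdown over control (horizontal axis, bar = SE) is drawn in pathway order from glucose uptake to the pentose phosphate enzymes. Filled points passed the test, with 10 of 19 glycolytic enzymes on the left of 0 and 5 of 7 pentose phosphate enzymes on the right.

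Glucose enters through facilitative transporters, and the members of this step divided. SLC2A1, the widespread basal transporter (chromosome 1, 42925353 to 42958868 in GRCh38), had 200.9, 207.6, 213.4 and 209.4 CPM in knockdown replicates 1 to 4, against 240.3, 247.4, 243.8 and 252.8 CPM in control replicates 1 to 4. It fell by 0.24 on the log2 scale (SE 0.0350, edgeR adjusted p 4.0e-05). SLC2A3, the high-affinity transporter best known from neurons (chromosome 12, 7919230 to 7936187), had 55.1, 49.9, 47.1 and 46.6 CPM after knockdown, against 35.4, 37.2, 38.0 and 37.8 CPM in controls. It rose by 0.42 (SE 0.0575, adjusted p 2.4e-05), and 13% of its sequence windows also occur in SLC2A14. The libraries of the groups did not overlap for either transporter. In FPKM, the authors' values scaled to both library total and gene length, SLC2A1 was the higher one in both groups, at 61.8 ± 1.45 FPKM after knockdown and 72.2 ± 1.61 FPKM in controls, while SLC2A3 stood at 13.1 ± 1.06 and 9.63 ± 0.305 FPKM (SD, n = 4 each).

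Glucose is then trapped by phosphorylation and prepared for cleavage, and of the 7 genes of this upper part 1 passed the test. HK1, the ubiquitous mitochondria-bound hexokinase (chromosome 10, 69270000 to 69401882), had 273.7, 293.3, 303.9 and 303.4 CPM after knockdown, against 344.0, 340.2, 353.5 and 350.4 CPM in controls. It fell by 0.24 (SE 0.0374, adjusted p 8.5e-05), with every knockdown library below every control. HK2, the inducible hexokinase of many tumours, stood at 125.3 ± 5.77 CPM after knockdown and 132.7 ± 3.27 CPM in controls (SD, n = 4 each) and did not pass (log2 change -0.08, adjusted p 0.141). ADPGK, which phosphorylates glucose with ADP, did not pass either (0.10, adjusted p 0.224).

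GPI interconverts the phosphates of glucose and fructose and sits at the branch point with the pentose phosphate pathway. It had 599.2, 593.7, 598.7 and 625.0 CPM after knockdown, against 571.5, 578.0, 566.6 and 572.2 CPM in controls. The groups did not overlap, but the log2 change of 0.08 (SE 0.0308) missed the threshold (adjusted p 0.0608). It passed as a rise in 8 of 19 alternatives: DESeq2 (adjusted p 0.0374), upper quartile scaling (0.0404), the fits on log2 FPKM (0.0227 to 0.0345), the fit without knockdown replicate 1 (0.00518) and both GC-corrected fits (0.0191 and 0.0268). Over all 19 its change lay between 0.06 and 0.10, with adjusted p up to 0.196. The phosphofructokinases commit the sugar to glycolysis, and none of them passed. PFKP averaged 489.5 ± 25.7 CPM after knockdown and 481.5 ± 9.41 CPM in controls, PFKL 132.6 ± 14.1 and 134.9 ± 4.34 CPM, and PFKM 111.6 ± 2.81 and 108.7 ± 4.56 CPM (SD, n = 4 each). Without knockdown replicate 1, PFKP rose by 0.06 (adjusted p 0.0387).

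Phosphofructokinase is tuned by a sugar bisphosphate that the PFKFB enzymes make and break and that TIGAR breaks down. PFKFB3, whose kinase activity far exceeds its phosphatase activity, had 120.1, 119.0, 119.3 and 120.8 CPM after knockdown, against 106.3, 109.0, 106.3 and 112.1 CPM in controls. It rose by 0.14 (SE 0.0376, adjusted p 0.00686). PFKFB2, the isoform known from heart, had 40.0, 38.7, 39.9 and 39.3 CPM after knockdown, against 46.1, 45.2, 47.8 and 47.1 CPM in controls. It fell by 0.24 (SE 0.0474, adjusted p 0.000938). Neither gene had overlapping groups, the first being higher and the second lower in every knockdown library. PFKFB4 stood at 11.5 ± 0.473 and 13.2 ± 1.13 CPM (knockdown and control, SD, n = 4 each) and missed the threshold (-0.21, adjusted p 0.0568). TIGAR did not pass (-0.08, adjusted p 0.328), and 46.2% of its windows are shared with an overlapping gene model.

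In the lower part, from aldolase to pyruvate kinase, 8 of 10 genes fell and the groups did not overlap in any of those 8. In all, 22 of the 39 genes (56.4%) had no overlap between the groups, beside 30.2% of all tested genes. PKM, which makes pyruvate and ATP in the last step (chromosome 15, 72199029 to 72231591), had 1532, 1757, 1719.9 and 1758 CPM after knockdown, against 2197, 2188, 2192 and 2148 CPM in controls. It fell by 0.37 on the log2 scale (SE 0.0383, adjusted p 9.4e-07), the smallest p among the glycolytic enzymes. Knockdown replicate 1 was the lowest library, and PKM fell by 0.32 without it. The counts cover the muscle and embryonic splice forms of PKM together.

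GAPDH, the NADH-yielding dehydrogenase (chromosome 12, 6534517 to 6538371), had 6243, 6937, 6504 and 6627 CPM after knockdown, against 7263, 7395, 7521 and 7397 CPM in controls. It fell by 0.17 (SE 0.0316, adjusted p 0.000518). TPI1, which balances the triose phosphates, had 887.5, 975.2, 935.0 and 967.9 CPM after knockdown, against 1089.8, 1072.9, 1072.8 and 1076.8 CPM in controls. It fell by 0.20 (SE 0.0332, adjusted p 0.000212), and 10.3% of its windows occur in a pseudogene. ENO1, the main enolase, had 1281, 1496, 1411 and 1474 CPM after knockdown, against 1609, 1575, 1611 and 1659 CPM in controls. It fell by 0.19 (SE 0.0405, adjusted p 0.00164), and the neuronal isozyme ENO2 did not pass, at 22.7 ± 0.286 and 22.8 ± 0.544 CPM (SD, n = 4 each).

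PGAM1, the phosphoglycerate mutase, had 287.1, 306.7, 301.3 and 302.0 CPM after knockdown, against 332.4, 331.1, 333.0 and 336.0 CPM in controls. It fell by 0.15 (SE 0.0330, adjusted p 0.00161), and 39.4% of its windows also occur in PGAM4 or pseudogenes. BPGM, which makes a bisphosphoglycerate best known from red cells, averaged 13.2 ± 0.729 and 15.3 ± 0.907 CPM (SD, n = 4 each). Its fall of 0.22 (SE 0.0744, adjusted p 0.0344) lost its call without control replicate 1 or 4 or knockdown replicate 3 or 4 (adjusted p 0.0703 to 0.112), with the replicate block (0.0548) and with no filter on low counts (0.0514). PGK1, the ATP-yielding kinase between GAPDH and the mutases, stood at 654.8 ± 14.2 CPM after knockdown and 654.1 ± 22.8 CPM in controls (SD, n = 4 each). It did not pass (adjusted p 0.981), and its overlapping groups set it apart from both of its neighbours in the pathway.

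Both aldolases, which cleave the sugar into trioses, fell, and both had low counts. ALDOC (chromosome 17, 28573120 to 28576895) had 1.81, 1.30, 2.03 and 1.76 CPM after knockdown, against 3.62, 5.53, 3.88 and 3.59 CPM in controls, resting on 46 to 70 counts and 112 to 175 counts per library. It fell by 1.27 on the log2 scale (SE 0.183, adjusted p 4.3e-05), the largest fall of the 39 genes, and by 0.76 on log2(FPKM + 1), which shrinks low genes. ALDOA (chromosome 16, 30064279 to 30070420) had 12.3, 12.8, 13.7 and 13.4 CPM after knockdown, against 18.4, 16.8, 16.6 and 16.1 CPM in controls. It fell by 0.38 (SE 0.0723, adjusted p 0.000646). Of its windows 87.5% also lie in an overlapping gene model, listed in the count table as LOC112694756 (30053151 to 30070414) with 67 to 101 counts after knockdown and 73 to 112 counts in controls. The counted level of ALDOA therefore covers only the reads assigned to it and cannot be set beside that of the other enzymes.

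**Figure D2:**
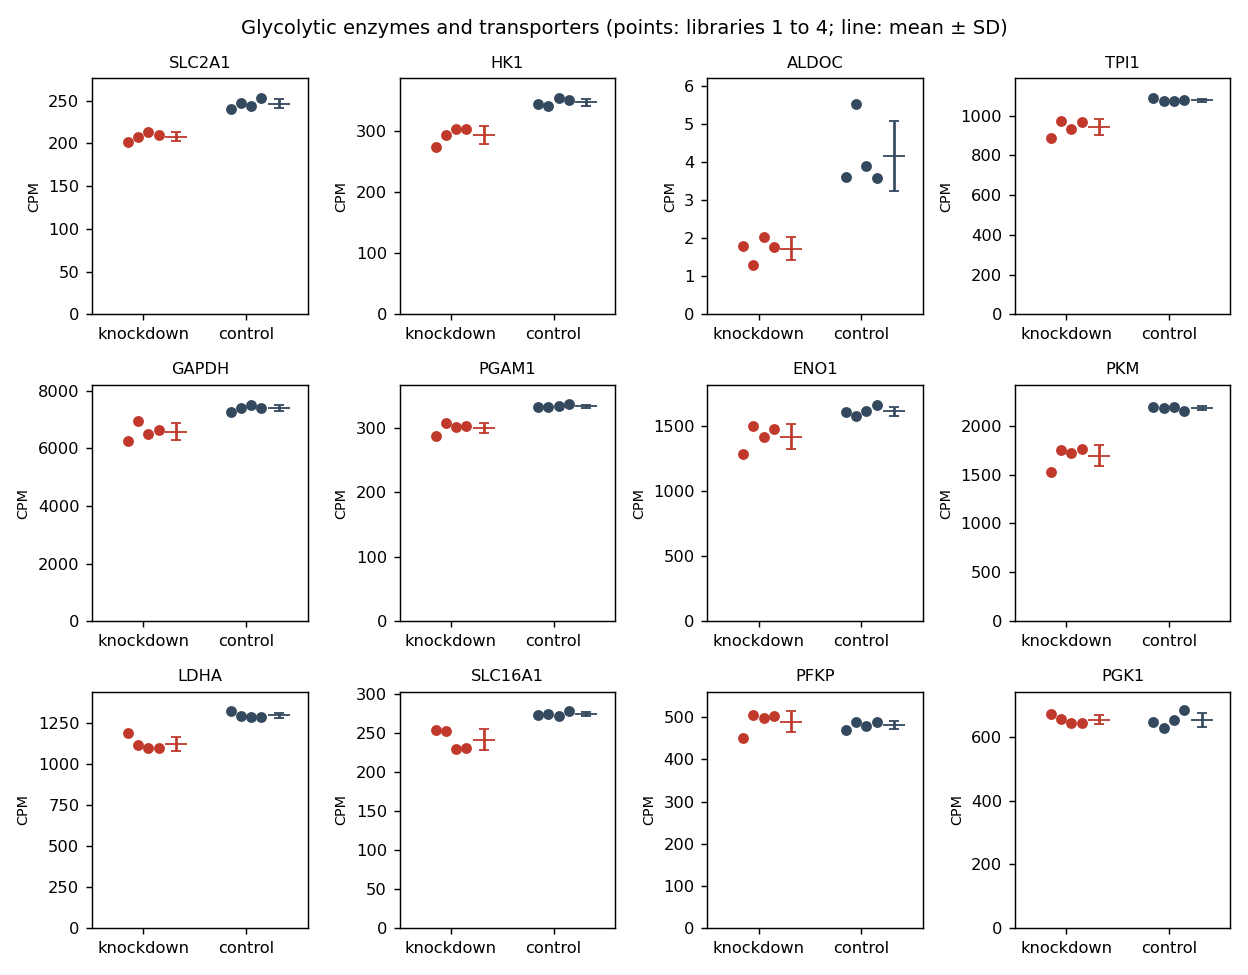
CPM in each library for 10 genes of glycolysis and its transport that fell, with PFKP and PGK1, which did not pass, as the last panels. Each axis starts at 0, points are the libraries and bars the mean ± SD, so the small size of the falls beside the level can be read off: PKM at 77.6% of control and GAPDH at 89.0%.

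At the fate of pyruvate, LDHA, the subunit favoured in lactate-making tissues (chromosome 11, 18394563 to 18408425), had 1188, 1118, 1096 and 1101 CPM after knockdown, against 1322, 1294, 1285 and 1288 CPM in controls. It fell by 0.20 (SE 0.0321, adjusted p 9.6e-05). LDHB, the subunit of lactate-using tissues, had 1105, 1107, 1045 and 1052 CPM after knockdown, against 1149, 1091, 1148 and 1169 CPM in controls, with overlapping groups. Its change of -0.08 (SE 0.0329) missed the threshold (adjusted p 0.0711), and LDHB fell without knockdown replicate 1 (adjusted p 0.00293). Of its windows 54.2% are shared with an overlapping gene model. SLC16A1, a monocarboxylate transporter that moves lactate either way, had 253.2, 252.7, 229.2 and 231.0 CPM after knockdown, against 273.2, 274.3, 271.4 and 277.6 CPM in controls. It fell by 0.18 (SE 0.0391, adjusted p 0.00162), and SLC16A3, the lactate exporter of glycolytic cells, did not pass (0.02, adjusted p 0.815).

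The PDK enzymes inhibit pyruvate dehydrogenase, inside mitochondria, by phosphorylating it. PDK1, the hypoxia-induced isoform, had 53.0, 47.0, 48.1 and 49.2 CPM after knockdown, against 53.7, 55.7, 52.8 and 57.4 CPM in controls. It fell by 0.15 (SE 0.0507, adjusted p 0.0268), but the groups overlapped, and the call was lost in 8 of 19 alternatives: without control replicate 2 or 4 or knockdown replicate 2, 3 or 4 (adjusted p 0.0506 to 0.0937) and on log2 FPKM (0.0694 to 0.0930). PDK2 and PDK3 did not pass (0.08 and -0.09). The phosphoglucomutases PGM1 and PGM2, which link glycogen to glycolysis, did not pass either (-0.07 and -0.10), though PGM2 fell without knockdown replicate 1 (adjusted p 0.00180).

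The oxidative branch of the pentose phosphate pathway held the largest rises. H6PD, the enzyme that starts the pathway inside the endoplasmic reticulum and makes NADPH there (chromosome 1, 9234774 to 9271337), had 49.6, 54.9, 56.4 and 57.0 CPM after knockdown, against 25.3, 26.0, 25.5 and 23.9 CPM in controls. It rose by 1.11 on the log2 scale (SE 0.0568, adjusted p 8.5e-11), and every alternative on counts or FPKM called it, from 0.81 to 1.16. PGLS, the lactonase of the next step (chromosome 19, 17511649 to 17521288), had 31.99, 36.4, 36.2 and 39.04 CPM after knockdown, against 23.0, 25.2, 22.2 and 24.6 CPM in controls. It rose by 0.60 (SE 0.0659, adjusted p 1.9e-06). PGD, the second NADPH-making dehydrogenase of the cytosolic branch (chromosome 1, 10399064 to 10420511), had 143.1, 149.2, 148.0 and 153.2 CPM after knockdown, against 146.9, 154.3, 148.1 and 141.9 CPM in controls. It did not pass (0.01, SE 0.0389, adjusted p 0.928), and its groups overlapped throughout.

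In the non-oxidative branch 3 of 4 genes rose. TKT, the thiamine-dependent transketolase (chromosome 3, 53224712 to 53256022), had 1301, 1476, 1459 and 1476 CPM after knockdown, against 1229.7, 1199, 1188 and 1190.3 CPM in controls. It rose by 0.25 (SE 0.0378, adjusted p 7.1e-05). TALDO1, the transaldolase that works beside it (chromosome 11, 747464 to 765012), had 126.3, 139.1, 136.3 and 134.1 CPM after knockdown, against 109.0, 110.8, 114.0 and 112.7 CPM in controls. It rose by 0.26 (SE 0.0402, adjusted p 7.4e-05). For both, knockdown replicate 1 was the lowest knockdown library and still lay above every control.

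RPIA, the ribose phosphate isomerase (chromosome 2, 88691673 to 88750929), had 32.9, 34.1, 30.6 and 27.8 CPM after knockdown, against 26.5, 24.7, 26.0 and 26.9 CPM in controls. It rose by 0.27 (SE 0.0653, adjusted p 0.00418), with knockdown replicate 4 just above the highest control. RPE, the epimerase of the same sugar, had 70.2, 69.6, 63.0 and 67.4 CPM after knockdown, against 67.4, 65.9, 68.2 and 71.9 CPM in controls and did not pass (-0.02, adjusted p 0.816). The isomerase and the epimerase act on the same pentose, and their groups were apart for the first and mixed for the second.

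**Figure D3:**
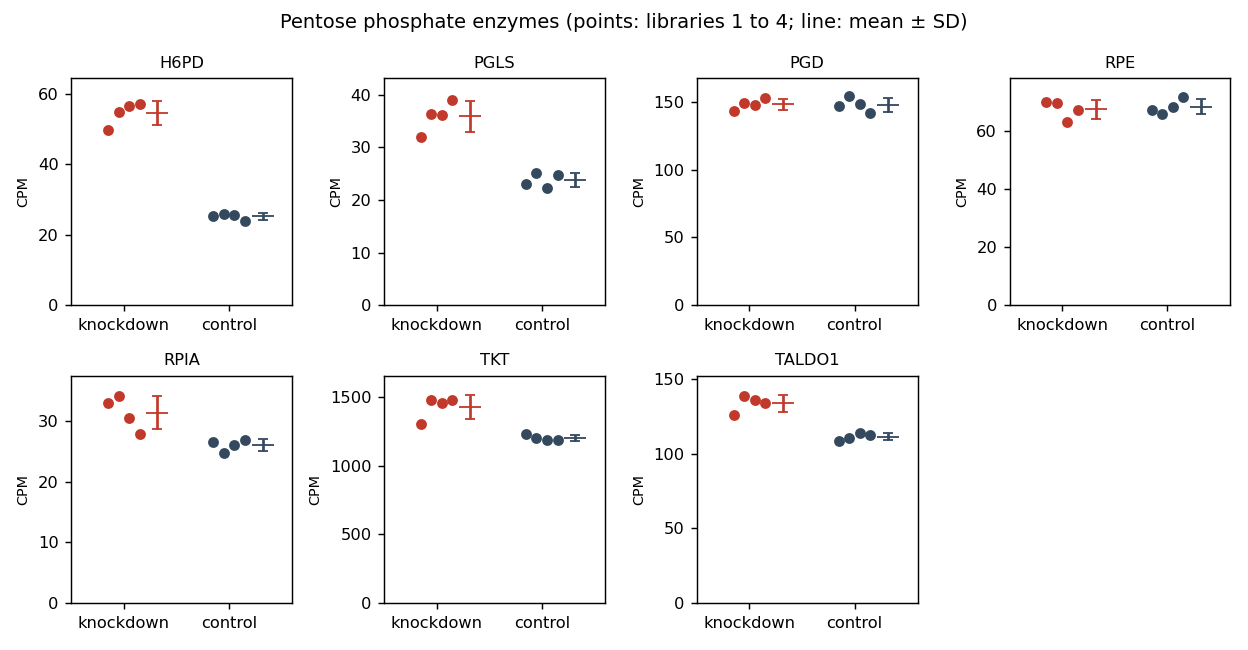
CPM of the 7 pentose phosphate enzymes in each library, with the mean ± SD beside the points and each axis starting at 0. H6PD, PGLS, RPIA, TKT and TALDO1 have every knockdown library above every control, while PGD and RPE overlap.

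The summed FPKM of each step was set beside its control level, with no test. FPKM divide by the authors' length of each gene, which for some members is far from that of the longest coding transcript. GPI has 11018 against 4341 bases, PDK3 13074 against 1921 and PDK1 5349 against 14193. Levels compared between genes, the weight of each gene in a sum and the isozyme shares below depend on these lengths. FPKM also lack the normalization factors of the CPM, which were 1.003 to 1.012 after knockdown and 0.992 to 0.995 in controls. Knockdown levels relative to control therefore stand slightly higher in FPKM than in CPM, PGK1 at 102% against 100.1%. Glucose uptake and hexokinase were below control (91.6% and 90.3%), and GPI (107%) and phosphofructokinase (103%) were above it. The phosphofructokinase sums overlapped, at 176.3 to 197.8 FPKM after knockdown and 181.0 to 190.2 FPKM in controls. Triose phosphate isomerase (88.6%), GAPDH (90.2%), mutase (91.0%), enolase (89.2%) and pyruvate kinase (78.7%) were below control, interrupted by phosphoglycerate kinase at 102%. Lactate dehydrogenase (92.2%) and lactate transport (92.5%) were below it too. The oxidative pentose phosphate step, with H6PD, PGLS and PGD, was at 112% and the non-oxidative one at 120.2%.

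A few abundant genes made up most of each sum. The non-oxidative sum was 562.3, 625.2, 616.7 and 618.0 FPKM after knockdown, against 510.0, 501.9, 501.3 and 502.3 FPKM in controls, of which TKT made up 460.6 ± 26.0 and 382.3 ± 5.87 FPKM (SD, n = 4 each). H6PD was among the low members, at 3.76 ± 0.222 FPKM after knockdown and 1.71 ± 0.0632 FPKM in controls. PGD, which did not pass, carried most of the oxidative sum, at 65.9 ± 1.65 and 64.7 ± 2.30 FPKM. GAPDH was the highest member at 4441 ± 179 and 4923 ± 73.1 FPKM. PKM stood at 507.6 ± 30.7 and 645.2 ± 6.67 FPKM, so TKT and PKM were closer in level after knockdown than in controls.

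**Figure D4:**
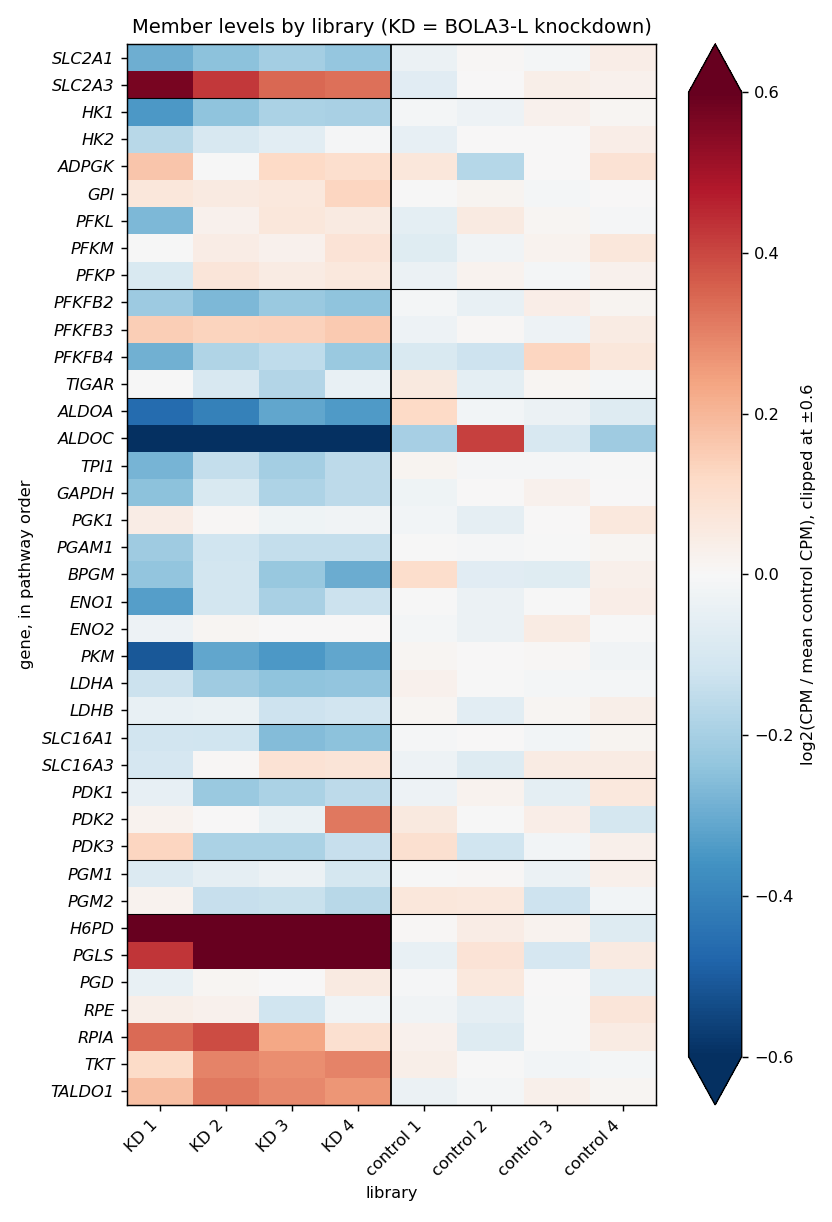
Each cell gives the log2 ratio of a gene's CPM in 1 library to its control mean, with the 4 knockdown libraries (KD) on the left, genes in pathway order and colours clipped at ±0.6. The blue block from ALDOA to PKM is broken at PGK1 and ENO2, and the red block at the bottom is broken at PGD and RPE.

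Within steps, the balance between isozymes was compared as the share of 1 gene in the summed FPKM of the isozymes compared. These sums leave out ADPGK at the hexokinase step and TIGAR beside the PFKFB enzymes, unlike the step sums above. This share does not depend on the scaling between libraries, but its size depends on the authors' gene lengths. Of 11 shares 6 had no overlap between the groups, and each gave p = 0.0286, the smallest that an exact two-sided permutation test over 70 assignments allows. Adjusted over the 11 shares this exact permutation p is 0.0524, so no share passed. SLC2A3 made up 19.5, 17.5, 16.3 and 16.4% of the transporter sum after knockdown, against 11.5, 11.7, 12.1 and 11.7% in controls. PFKFB3 made up 81.3 ± 0.288% of the bifunctional enzymes after knockdown and 77.0 ± 0.929% in controls (SD, n = 4 each). The group difference was 2.14 percentage points for LDHB (55.0 ± 0.641% against 52.9 ± 0.802%), and 2.17 for HK2 (28.0 ± 0.383% against 25.9 ± 0.454%). ENO2 made up 2.17 ± 0.124% of the enolases after knockdown and 1.91 ± 0.0491% in controls (SD, n = 4 each). The ALDOC share is among the 6, but it divides by a sum that holds the partly counted ALDOA, so it is not a share of all aldolase RNA. The other shares overlapped between the groups, among them that of PDK1 (59.5 ± 2.18% after knockdown and 62.7 ± 1.83% in controls, exact permutation p 0.0571, adjusted 0.0897) and that of SLC16A3 (25.8 ± 2.11% and 23.1 ± 0.777%, p 0.0857, adjusted 0.118).

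**Figure D5:**
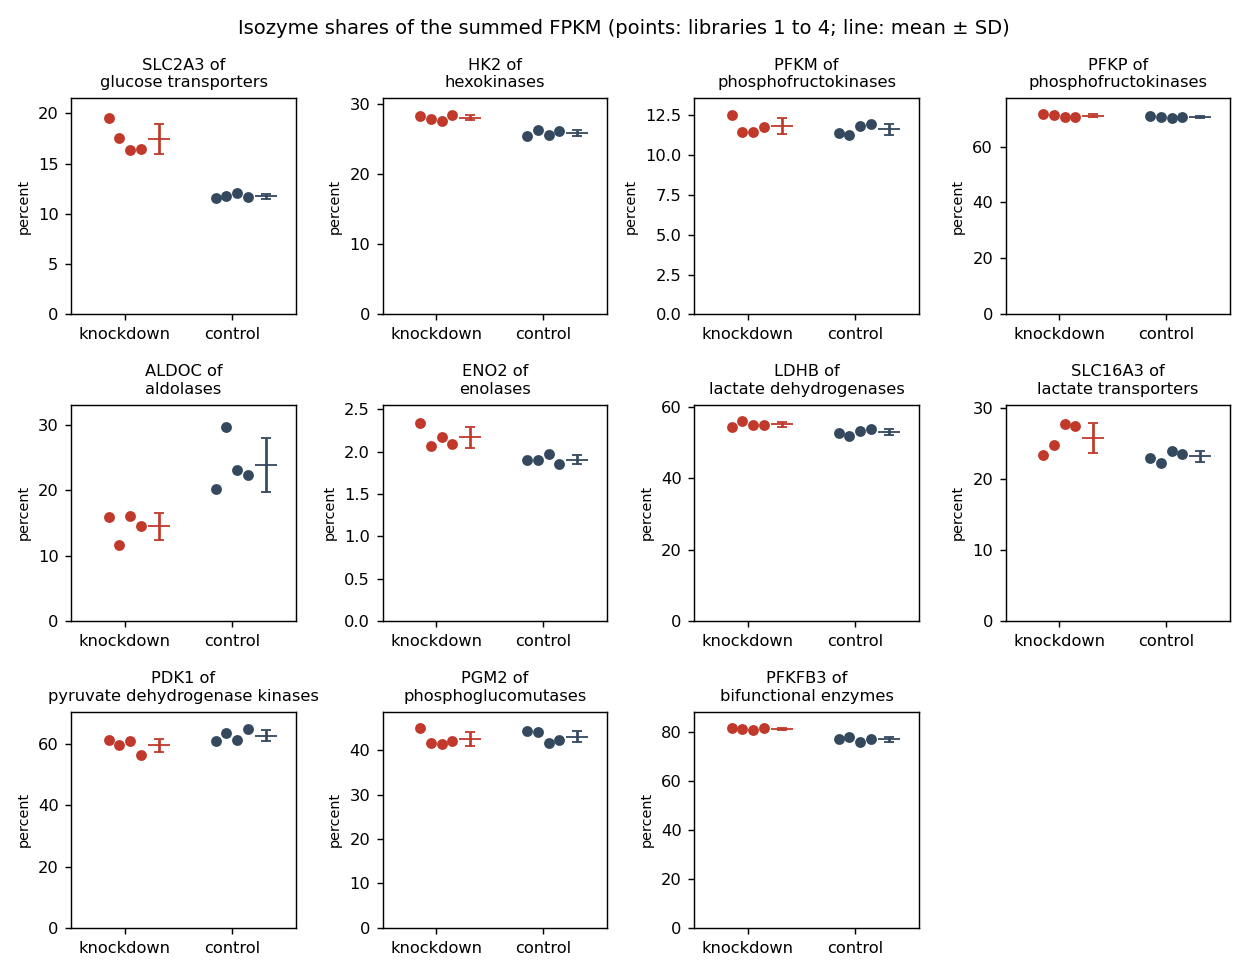
Share of 1 isozyme in the summed FPKM of the isozymes compared (without ADPGK and TIGAR), in percent. The 11 shares are drawn in each library, with the mean ± SD beside the points and each axis starting at 0. SLC2A3, HK2, ENO2, LDHB and PFKFB3 have every knockdown library above every control, and ALDOC every one below, in a sum whose ALDOA part covers only the reads assigned to it.

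Promoter sequence is a feature that the choice of genes did not use. RefSeq (GRCh38.p14) gave promoter windows for 36 of the 39 genes, 66 windows in all. The 250 bases before each listed start were searched on both strands for ACGTG and for CACGTG, an E-box that holds ACGTG on both strands. ACGTG is a form of the core of the hypoxia response element, and the other form, GCGTG, was not searched. A window without ACGTG may therefore still hold that core. ACGTG was found in 24 of the 66 windows (36.4%), beside 18.5% of all 35116 windows. Counted by gene, 21 of the 36 (58.3%) had it in at least 1 window, beside 21.7% of all 27305 genes with a window. A share by gene grows with the number of windows per gene. The members had more windows per gene (66 for 36) than all genes (35116 for 27305), which widens this contrast. It was found in 7 of 12 genes that fell, 1 of 6 that rose and 13 of 18 that did not pass, so the share was highest among the genes that did not pass. CACGTG was found in 8 of the 66 windows (12.1%), beside 6.3% of all windows. By gene it was found in 8 of the 36 (22.2%), beside 7.7% of all genes with a window, with the same limit from windows per gene. These were 4 of 12 genes that fell, 1 of 6 that rose and 3 of 18 that did not pass. A match is a description of letters and not of binding. Several members have more than 1 listed start, and for some, H6PD among them, the listed start lies inside the gene as given above, so bases before its outer end were not searched. The 4 sequences below were picked after the matches were seen, to show both outcomes in both directions. ALDOC fell and its window holds both motifs, while ENO1 fell and its window holds neither, though it does hold GCGTG. PFKFB3 rose and the second of its 2 listed windows holds both (the first holds neither), while TKT rose and its window holds neither. Capitals mark ACGTG on either strand, and each sequence ends at the base before the listed start. The ALDOC window is chr17:28576896-28577145 (minus strand), that of ENO1 chr1:8878687-8878936 (minus strand), that of PFKFB3 chr10:6202682-6202931 (plus strand) and that of TKT chr3:53256023-53256272 (minus strand), each read 5′ to 3′ along the gene.
ALDOC: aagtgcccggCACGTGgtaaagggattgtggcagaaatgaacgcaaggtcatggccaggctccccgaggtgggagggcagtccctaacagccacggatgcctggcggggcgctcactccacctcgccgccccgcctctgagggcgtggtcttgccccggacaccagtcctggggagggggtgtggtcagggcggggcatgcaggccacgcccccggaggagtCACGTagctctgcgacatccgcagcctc
ENO1: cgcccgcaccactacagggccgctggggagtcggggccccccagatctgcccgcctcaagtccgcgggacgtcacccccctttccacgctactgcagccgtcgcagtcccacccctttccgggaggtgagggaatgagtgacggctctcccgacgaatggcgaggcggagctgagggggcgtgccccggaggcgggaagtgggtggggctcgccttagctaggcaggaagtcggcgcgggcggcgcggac
PFKFB3: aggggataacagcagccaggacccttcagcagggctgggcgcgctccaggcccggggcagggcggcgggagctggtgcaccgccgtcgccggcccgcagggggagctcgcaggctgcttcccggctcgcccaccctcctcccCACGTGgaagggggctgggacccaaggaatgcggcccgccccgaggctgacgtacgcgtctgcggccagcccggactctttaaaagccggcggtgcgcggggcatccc
TKT: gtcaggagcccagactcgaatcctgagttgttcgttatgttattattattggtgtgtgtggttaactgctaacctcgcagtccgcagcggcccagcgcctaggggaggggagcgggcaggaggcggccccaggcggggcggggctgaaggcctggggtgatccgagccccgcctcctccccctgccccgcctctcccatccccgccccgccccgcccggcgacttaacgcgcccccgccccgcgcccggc

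Position gave no common direction. On chromosome 1 ENO1 (8861000 to 8878686), H6PD and PGD lie near each other, and of these ENO1 fell, H6PD rose and PGD did not pass. On chromosome 12 GAPDH, TPI1 (6867420 to 6870948) and ENO2 (6914580 to 6923697) lie near each other, of which GAPDH and TPI1 fell and ENO2 did not pass.

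Other genes of glucose handling were mixed. Of 17 tested genes from a list of 30, 3 rose and 5 fell, with a median log2 change of -0.02. PDP2 and PDP1, the phosphatases that oppose the PDK enzymes, fell by 0.34 and 0.28 (adjusted p 2.6e-05 and 8.8e-05). PDP1 averaged 135.5 ± 8.94 CPM after knockdown and 164.6 ± 2.26 CPM in controls, and PDP2 55.0 ± 1.33 and 69.7 ± 3.46 CPM (SD, n = 4 each). GFPT1, the entry enzyme of hexosamine synthesis, rose by 0.33 (adjusted p 5.2e-05). GPD1L and GPD2, glycerol phosphate dehydrogenases of the cytosol and the mitochondrial membrane, rose by 0.20 each (adjusted p 0.00210 and 0.00228). SLC2A6, a lysosomal hexose transporter, fell by 0.52 (adjusted p 0.00779).

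Of 15 tested genes of ribose and NADPH supply outside the 39, 2 rose and 2 fell, with a median of 0.00138. IDH2, the mitochondrial NADP-dependent isocitrate dehydrogenase, averaged 98.7 ± 7.74 CPM after knockdown and 72.0 ± 1.68 CPM in controls and rose by 0.46 (SE 0.0518, adjusted p 2.7e-06). NADK, which makes NADP from NAD, rose by 0.19 (adjusted p 0.0294). MTHFD2, of mitochondrial folate metabolism, fell by 0.25 (adjusted p 0.000303) and PRPS2, which activates ribose for nucleotide synthesis, by 0.11 (adjusted p 0.0382).

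Among 12 tested regulators 4 fell and 1 rose. HIF1A, the oxygen-sensitive activator of many glycolytic genes, averaged 198.2 ± 11.6 CPM after knockdown and 305.9 ± 7.98 CPM in controls (SD, n = 4 each) and fell by 0.63 (SE 0.0411, adjusted p 2.8e-09). Its relative EPAS1 fell by 0.20 (adjusted p 0.00104) and EGLN1, the prolyl hydroxylase that marks both for decay, by 0.25 (adjusted p 0.00323). VHL, the ubiquitin ligase subunit that removes them, rose by 0.31 (adjusted p 0.000127). SREBF1, the lipogenic activator that responds to insulin, fell by 0.80 (adjusted p 7.0e-10). The HIF partner ARNT (-0.07, adjusted p 0.257) and MYC (-0.16, adjusted p 0.0883) did not pass.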

How the data were processed

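PolyA RNA of KYSE150 cells was sequenced as 150 bp paired-end reads filtered with fastp, per the labels' protocols and series text. The build is hg38, per the submitters' processing notes; aligner, counter and annotation are not given in the sources used. The authors deposited raw counts per gene. They also deposited FPKM, which equal the count over the library total and 1 length per gene for all 110558 values above 0 to within 1e-06. Counts were filtered with filterByExpr, normalized by TMM and tested with robust quasi-likelihood F-tests in edgeR, all 4 libraries per group, no covariates, Benjamini-Hochberg over 11841 genes at 0.05. CPM use the TMM library sizes, and ± is the SD. The SE is the absolute log2 change over the square root of F. At this depth 3 counts are 0.0854 to 0.0962 CPM. Shared sequence is the share of 75-base windows, every 25 bases, of the longest GENCODE v29 coding transcript that occur in other genes. The fit was tested on simulated data, where it recovered 82% of genes changed 1.25-fold, with 11 false calls among 11800 genes. Smaller changes, as in most genes called here, were not simulated. The members, lists and tests were chosen with earlier results of these data known. The named genes are all 39 members, BOLA3 and, from each other list, up to the 6 genes with the smallest adjusted p under 0.05; ARNT, MYC and the marker genes were named after their values were seen. Alternatives were RLE and upper quartile scaling, no filter or 1 CPM in 4 libraries, a replicate block, DESeq2, limma on log2(FPKM + 1 or 0.1) with a minimum of 0.5 FPKM in 4 libraries or none, each library left out and, chosen after seeing the data, offsets corrected for transcript GC content. Count models ran in R 4.3.3 with edgeR 4.0.16, limma 3.58.1 and DESeq2 1.42.0. Permutation tests, sequence searches and plots ran in Python 3.11.15 with scipy 1.17.1, numpy 2.4.6, matplotlib 3.10.9 and pandas 2.3.3.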

Additional observations from a re-analysis of the deposited data

Results flagged for a closer look

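Of 102 groups of 4 libraries checked, 8 had 1 library far from the other 3, where chance alone flags about 1 in 20. Knockdown replicate 1 was that library in 6 of the 8. It was low for PFKL (111.7 CPM), PFKP (451.4 CPM), PKM (1532 CPM) and TKT (1301 CPM) and high for PDK3 (20.8 CPM) and PGM2 (101.3 CPM). Control replicate 2 was high for ALDOC (5.53 CPM), and knockdown replicate 4 was high for PDK2 (22.0 CPM). The fall of PKM and the rise of TKT passed the test with knockdown replicate 1 and without it.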

How the results depend on the processing

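The 39 genes gave 12 to 17 falls and 7 to 9 rises when each library was left out in turn, and 13 to 18 falls and 7 or 8 rises under the other alternatives, against 14 and 7. Of the 21 genes called, 19 kept their call and direction under all 19 alternatives, and BPGM and PDK1 did not. With the replicate number as a block 13 fell and 7 rose. Same-numbered libraries correlated at -0.0444 to 0.0876 after removal of group means, and 1 of 4 knockdown libraries correlated best with its own number. BOLA3 fell by 1.56 to 1.71 throughout. With GC-corrected offsets 18 fell and 8 rose. Over all genes that fit also called more, 2506 falling and 2352 rising of 11584 tested, against 1853 and 1777 of 11841 in the main fit. All sign changes were in values that missed the threshold both ways. With a library left out, PFKL ranged from -0.0563 to 0.0511 (without knockdown replicate 1) and the PFKM share difference from -0.0514 (likewise) to 0.313 percentage points. PGK1 ranged from -0.014 to 0.0235, and was at -0.00398, -0.014, -0.011 and -0.00032 without control replicate 1 or 2 or knockdown replicate 1 or 2. ENO2 was at 0.00401 with the upper quartile, 0.015, 0.016 and 0.015 on log2 FPKM, -0.0128 to 0.012 with a library left out, 0.012 being without control replicate 3, and 0.00611 without knockdown replicate 1. SLC16A3 was at -0.00333 without control replicate 2, -0.00421 and -0.00093 without knockdown replicate 3 or 4 (up to 0.0581 without replicate 1) and -0.00568 with GC-corrected offsets and without knockdown replicate 1. PDK2 was at -0.00598 without knockdown replicate 4 (up to 0.121 otherwise), and PGD at -0.014 and -0.010 without control or knockdown replicate 4 (up to 0.0297 otherwise). RPE was at 0.00265, 0.00277 and 0.00265 on log2 FPKM, 0.00791 without control replicate 4, 0.015 without knockdown replicate 3, -0.0343 without knockdown replicate 1 and 0.013 with GC-corrected offsets and without knockdown replicate 1. The causes were not tested. Without knockdown replicate 1, 7 isozyme shares passed (adjusted p 0.0449), where all had missed the threshold. Depth limits ALDOC most, at 46 to 70 counts per knockdown library and 112 to 175 per control.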
